A study of Mus musculus with 4 samples.

Results

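Keratins are the intermediate filament proteins of epithelial cells, and 8 keratin genes were followed here in mouse gastruloids, chosen by symbol from the 24831 genes of the count tables. Krt7, Krt8, Krt18 and Krt19 are keratins of simple, single-layered epithelia. Krt5, Krt14, Krt15 and Krt17 are keratins of stratified epithelia such as the epidermis. Filaments form from obligate pairs of an acidic type I keratin (here Krt14, Krt15, Krt17, Krt18 and Krt19) and a basic type II keratin (Krt5, Krt7 and Krt8). Krt8 with Krt18 is the pair that appears first in the embryo, and Krt5 with Krt14 is the pair of basal cells in stratified epithelia. ZEB2 is a zinc finger transcription factor known for binding E-box sequences and repressing epithelial genes.

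RNA was sequenced from somitic gastruloids, cultured stem cell aggregates that lengthen and make somite tissue. All 4 libraries came from the E14_triple reporter line, in which the endogenous Zeb2 gene carries an HA epitope and the FKBP12F36V degron, so the controls carry the tagged allele too. Each aggregate began as 300 cells, received the WNT agonist CHIR99021 (3 μM) at 48 h, and was placed in 10% Matrigel at 96 h. The dTAG-13 group (2 libraries, numbered 1 and 2) received 100 nM dTAG-13, a degrader of the tagged protein, at 72 and 96 h, and the untreated group (2 libraries, also numbered 1 and 2) did not; DMSO is given as the control treatment in the growth protocol. The labels do not say whether the replicates were separate cultures, and the p-values then reflect only library-to-library spread, possibly technical. Reads counted in genes came to 11491330 to 12716172 per library. Zeb2 mRNA was at 98.3 and 164 CPM (read counts per 1000000 of the effective library size) untreated and at 103 and 108 CPM with dTAG-13, which acts on the protein and not on the mRNA. Somite, presomitic and neural tube markers were present in every library, at sums of 123 to 301, 118 to 221 and 145 to 396 CPM.

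Simple keratin mRNA was about 2-fold higher with dTAG-13. The stratified keratins were near the detection limit in both groups, and their summed group means were 2.08-fold apart on few counts. The 4 simple keratins summed to 195 and 165 CPM in the untreated libraries and to 339 and 477 CPM with dTAG-13, group means of 180.0 ± 21.2 and 408 ± 97.9 CPM (SD, n = 2 each) that are 2.27-fold apart. Each of the 4 was higher in both dTAG-13 libraries than in both untreated ones, a separation found in 14.4% of all 13602 tested genes. None of the 6 keratins tested, and no gene at all (0%), passed an adjusted p of 0.05 in the quasi-likelihood test of edgeR, with no covariate. At an unadjusted p under 0.05, 4 of 4 simple keratins and 0 of the 2 stratified keratins tested were higher, against 2.29% of tested genes higher and 1.23% lower. DESeq2 on the same counts called Krt8 and Krt18, among 0.219% of genes called higher and 0.114% called lower. Of the 8 keratins, 6 (the simple ones, Krt15 and Krt17) had both dTAG-13 libraries above both untreated ones. A log2 difference of at least 1 in both replicate numbers was reached by 0 of the 8, against 0.787% of tested genes. Under edgeR with the replicate number as a term, a fit given with the processing alternatives, the 4 simple keratins were called, with 2.90% of genes called higher and 1.77% lower; the block therefore changes the call on these 4. In bulk tissue of this kind, a change in the number of epithelial cells and a change in keratin RNA per cell cannot be told apart.

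**Figure D1:**
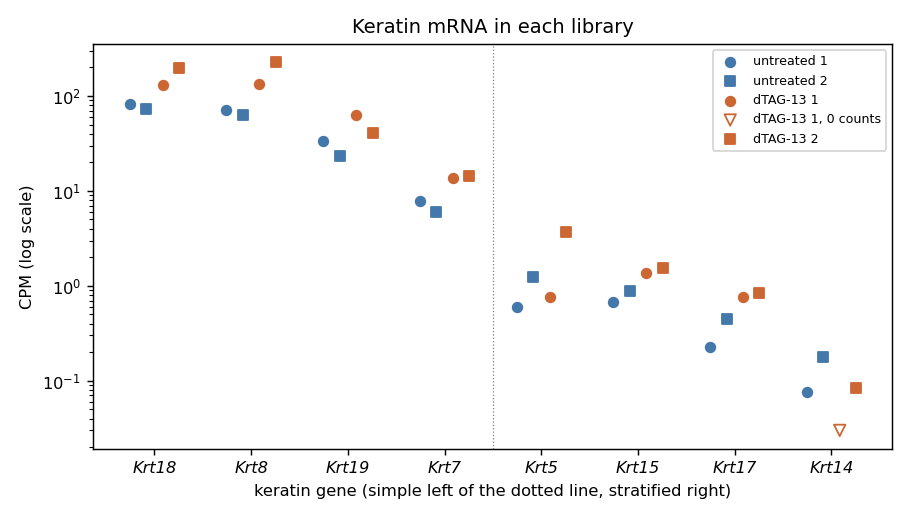
CPM of each keratin in each of the 4 libraries, on a log axis; blue is untreated, orange is dTAG-13, circles are replicate 1 and squares replicate 2, and the open triangle at the base marks a library with 0 counts. Krt18 and Krt8 lie between 63.8 and 226 CPM in the 4 libraries, and no stratified keratin exceeds 3.65 CPM.

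Krt8, the type II partner of simple epithelia (chromosome 15, 101996698 to 102004482, minus strand, in GRCm38), was at 71.7 and 63.8 CPM in untreated replicates 1 and 2 and at 133 and 226 CPM in dTAG-13 replicates 1 and 2. Both dTAG-13 libraries stood above both untreated ones, and dTAG-13 replicate 2 was the highest of all. Its log2 fold change was 1.40 ± 0.27 (SE; adjusted p = 0.774 in edgeR, 0.000687 in DESeq2). Krt18, its type I partner (chromosome 15, 102028180 to 102032027, plus strand), was at 82.0 and 72.1 CPM untreated and at 129 and 197 CPM with dTAG-13. The order of the libraries was the same as for Krt8, and the log2 fold change was 1.08 ± 0.22 (adjusted p = 0.774 by edgeR, 0.00722 by DESeq2). Within replicate numbers, Krt8 was 1.85-fold higher with dTAG-13 in number 1 and 3.54-fold higher in number 2, and Krt18 was 1.57-fold and 2.73-fold higher. The calls of DESeq2 were not kept in every fit without 1 library, and each such fit leaves a group with 1 library. In edgeR the log2 fold changes of Krt8 and Krt18 were 0.95 and 0.72 without dTAG-13 replicate 2. They were 1.73 and 1.35 without dTAG-13 replicate 1, 1.48 and 1.16 without untreated replicate 1, and 1.32 and 0.99 without untreated replicate 2.

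The windows before the RefSeq starts of both partners contained a pair of E-boxes of the kinds that ZEB factors are known to bind. Sequences of 250 bases before the RefSeq transcript start (GRCm38.p6) are shown for the 4 keratins whose windows held a match, to set the Krt8 and Krt18 pair beside Krt7 and Krt5; capitals mark each match. The Krt8 window is chr15:102004343-102004592 (minus strand), the Krt18 window chr15:102027966-102028215 (plus), the Krt7 window chr15:101412153-101412402 (plus) and the Krt5 window chr15:101712906-101713155 (minus). All are written 5′ to 3′ on the gene's strand.
Krt8: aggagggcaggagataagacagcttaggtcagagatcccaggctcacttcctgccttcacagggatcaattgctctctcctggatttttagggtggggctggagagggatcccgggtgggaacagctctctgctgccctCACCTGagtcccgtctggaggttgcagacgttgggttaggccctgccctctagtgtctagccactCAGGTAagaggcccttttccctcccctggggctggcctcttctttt
Krt18: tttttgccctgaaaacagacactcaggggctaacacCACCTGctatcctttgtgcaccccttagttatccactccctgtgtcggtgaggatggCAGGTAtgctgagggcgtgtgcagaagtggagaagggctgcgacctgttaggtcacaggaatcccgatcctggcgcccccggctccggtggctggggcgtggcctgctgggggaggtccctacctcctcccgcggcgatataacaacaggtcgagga
Krt7: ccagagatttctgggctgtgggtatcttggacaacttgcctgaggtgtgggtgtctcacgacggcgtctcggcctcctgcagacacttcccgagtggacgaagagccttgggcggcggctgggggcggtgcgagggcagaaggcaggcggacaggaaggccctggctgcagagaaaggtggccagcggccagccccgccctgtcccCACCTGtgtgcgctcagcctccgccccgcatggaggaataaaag
Krt5: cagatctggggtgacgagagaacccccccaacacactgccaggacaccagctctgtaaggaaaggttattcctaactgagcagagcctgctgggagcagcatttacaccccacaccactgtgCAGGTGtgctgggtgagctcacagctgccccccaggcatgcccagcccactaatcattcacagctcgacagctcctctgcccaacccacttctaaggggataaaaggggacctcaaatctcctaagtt
The first kind of string searched on both strands was CACCTG, which reads as CAGGTG on the opposite strand. The second was TACCTG, which reads as CAGGTA there. A match of the first kind cannot share bases with a match of the second, and the search covered 250 bases before and 50 after the start. Krt8 held the first kind at bases -111 to -106 and the second at -46 to -41 from the transcript start. Krt18 held them at -214 to -209 and -157 to -152. Krt7 and Krt5 held the first kind only, at -44 to -39 and -128 to -123. Of 32851 mouse promoter windows of this length, 20.2% held the first kind, 12% the second, 29.5% either and 2.66% both. RefSeq windows were matched for 5 of the 8 keratins; that of Krt14 held neither string and starts inside the gene as GENCODE M21 annotates it. GENCODE starts Krt8 and Krt18 upstream of the RefSeq start, so part of each of those windows lies inside its gene model, and the whole Krt7 window does. Both Krt8 matches and the Krt7 match are therefore inside the GENCODE gene, and the Krt18 and Krt5 matches are upstream of it. Such matches are letters in a window, and binding was not measured.

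**Figure D2:**
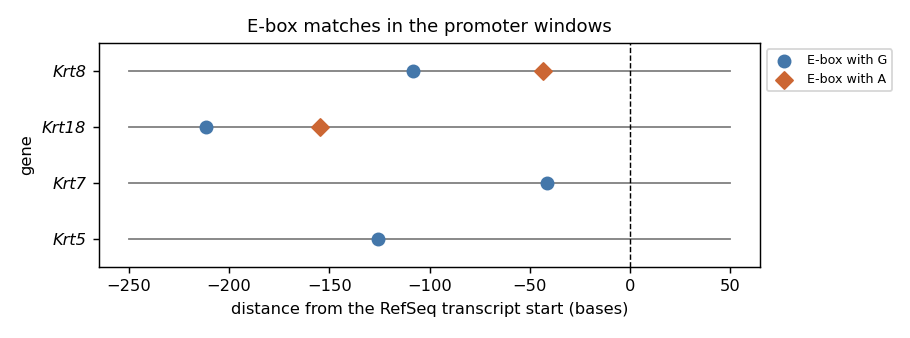
Position of each E-box match (horizontal axis, bases from the RefSeq transcript start, dashed line) in the windows of Krt8, Krt18, Krt7 and Krt5; circles (E-box with G) are the first kind, CACCTG, and diamonds (E-box with A) the second kind. Krt8 and Krt18 hold both kinds, and Krt7 and Krt5 hold the first kind only.

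Krt19, a small type I keratin without a tail domain (chromosome 11, 100140810 to 100148665), was at 33.7 and 23.2 CPM untreated and at 63.3 and 40.4 CPM with dTAG-13. The groups did not overlap, but here replicate 1 was the higher library in both groups. Its log2 fold change was 0.86 ± 0.29 (adjusted p = 1.00 by edgeR, 0.532 by DESeq2), and the difference was nearly equal in the numbers, 1.88-fold in number 1 and 1.74-fold in number 2. Krt7, a type II keratin of ducts and glands (chromosome 15, 101411043 to 101430313), was at 7.83 and 6.05 CPM untreated and at 13.8 and 14.3 CPM with dTAG-13. Its dTAG-13 libraries were close to each other and above both untreated ones (log2 fold change 1.01 ± 0.27, adjusted p = 0.931 by edgeR and 0.507 by DESeq2). The log2 fold change of Krt19 was 0.50 without dTAG-13 replicate 1, and that of Krt7 stayed between 0.84 and 1.20 when any library was left out.

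**Figure D3:**
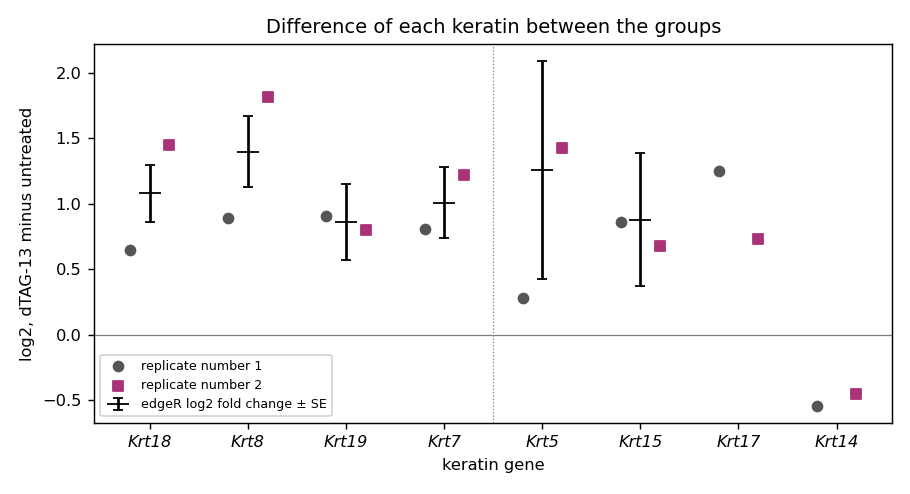
Log2 difference between dTAG-13 and untreated for each keratin, within replicate number 1 (grey circles) and number 2 (purple squares), with the edgeR log2 fold change and its SE (black) for the 6 keratins tested. Krt8 and Krt18 differ more in number 2 (1.82 and 1.45) than in number 1 (0.89 and 0.65), while Krt19 has 0.91 and 0.80.

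The simple keratins followed the replicate numbers in different ways. From number 1 to number 2, the log2 level of Krt19 was lower by similar amounts in both groups (-0.53 untreated, -0.64 with dTAG-13). Krt8 had -0.17 untreated and 0.76 with dTAG-13, and Krt18 had -0.19 and 0.61. Krt8 made up 36.4% and 38.0% of the CPM of the 8 keratins in the untreated libraries, and with dTAG-13 its share was 38.9% in replicate 1 and 46.7% in replicate 2. The share of Krt19 was 17.1% and 13.8% untreated and 18.5% and 8.36% with dTAG-13. The ratio of Krt8 to Krt19 was 2.13, 2.75 and 2.10 in the other libraries and 5.59 in dTAG-13 replicate 2. Since 1 library sets these last differences, they are values of that library.

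Per kilobase of transcript, the untreated levels ran from Krt18 (53.6 ± 4.87 CPM per kb) over Krt8 (34.6 ± 2.86) and Krt19 (18.0 ± 4.69) to Krt7 (1.70 ± 0.308; SD, n = 2 each). These 4 levels were separated by more than their spread. That spread does not cover reads from shared sequence. Of the 50-base stretches of Krt8, 29.7% also occur in another gene, against 0.72% for Krt18. The effect of this on the counts was not tested. The order of Krt8 and Krt18, and the size of the ratios that hold Krt8, are therefore uncertain. Below them came Krt15 at 0.461 ± 0.0881 and Krt5 at 0.421 ± 0.207 CPM per kb, which did not differ beyond their spread, then Krt17 at 0.216 ± 0.0998, whose libraries overlapped those of Krt5, and Krt14 at 0.0746 ± 0.0427. With dTAG-13 the order of the first 4 was kept, although the ranges of Krt18 (89.7 and 137 CPM per kb) and Krt8 (67.9 and 115) overlapped. Per kb, Krt8 was at 0.642 and 0.650 of the level of Krt18 untreated and at 0.757 and 0.842 with dTAG-13. The ratio was thus higher in both dTAG-13 libraries. Whether the partners were closer in level there is uncertain, because of the shared sequence of Krt8. The type I to type II ratio over the 4 simple keratins, per kb, was 2.03 and 1.91 untreated and 1.82 and 1.37 with dTAG-13.

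The stratified keratins together had 21 and 31 counts in the untreated libraries and 34 and 72 with dTAG-13, or 1.58, 2.76, 2.90 and 6.11 CPM. Group means were 2.17 ± 0.832 and 4.51 ± 2.27 CPM (SD, n = 2 each), 2.08-fold apart, and the lower dTAG-13 library differed little from the higher untreated one. Their share of the counts of the 8 keratins was 0.804% (95% exact binomial interval 0.498% to 1.23%) and 1.64% (1.12% to 2.32%) untreated, and 0.849% (0.588% to 1.18%) and 1.26% (0.991% to 1.59%) with dTAG-13. The shares of the groups overlapped, both dTAG-13 libraries lying between the untreated ones. Counting error alone is covered by these intervals, as PCR copies of a molecule cannot be recognised in these reads.

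**Figure D4:**
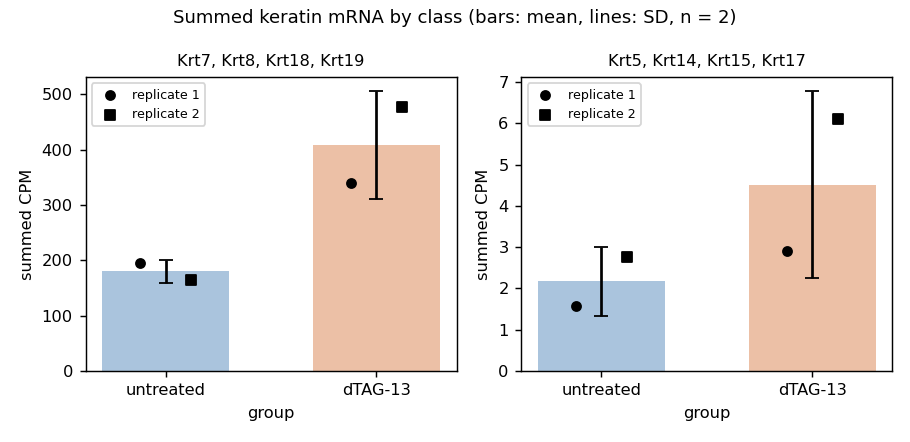
Summed CPM of the simple keratins (left) and the stratified keratins (right) by group; bars are means, lines SD (n = 2), circles replicate 1 and squares replicate 2, and the vertical scales differ. Simple keratins sum to 165 to 195 CPM untreated and 339 to 477 with dTAG-13, and stratified keratins to 1.58 to 2.76 and 2.90 to 6.11.

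The log2 ratio of dTAG-13 to untreated was 1.18 for the simple sum and 1.05 for the stratified sum, a difference of 0.13 between the classes. Within numbers the simple sum differed by 0.80 and 1.53 and the stratified sum by 0.87 and 1.15, so the simple class was not the larger in number 1. The difference between the classes turned to -0.45 without untreated replicate 2 and to -0.09 without dTAG-13 replicate 1, and leaving out untreated replicate 1 gave 0.60, dTAG-13 replicate 2 gave 0.49. No test was made of this difference, because the members were chosen and each group holds 2 libraries. Fold changes of the stratified class rest on few reads, where those of the simple class rest on 1856 to 5622 per library.

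Krt5, the type II keratin of basal cells (chromosome 15, 101707070 to 101712898), had 8 and 14 counts untreated and 9 and 43 with dTAG-13, or 0.603, 1.25, 0.768 and 3.65 CPM. Only dTAG-13 replicate 2 stood apart, and the groups overlapped. The log2 fold change of 1.26 ± 0.83 (adjusted p = 1.00 by edgeR) turned to -0.27 without that library. Krt14, its type I partner (chromosome 11, 100203162 to 100207548), had 1 and 2 counts untreated and 0 and 1 with dTAG-13. These 4 reads gave a ratio of 0.348 with a counting interval of 0.00662 to 4.33, and the gene was not tested. A count of 0 in dTAG-13 replicate 1 allows up to 0.256 CPM.

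Krt15, a type I keratin of basal layers and hair follicle stem cells (chromosome 11, 100131758 to 100135928), had 9 and 10 counts untreated and 16 and 18 with dTAG-13. The groups did not overlap, at 0.678 and 0.890 CPM against 1.36 and 1.53 CPM (log2 fold change 0.88 ± 0.51, adjusted p = 1.00 by edgeR). Krt17, a type I keratin of early epidermal appendages and wounded epithelium (chromosome 11, 100256217 to 100261029), had 3 and 5 counts untreated and 9 and 10 with dTAG-13 and was left untested by the filter on low counts. Its groups did not overlap either, and its summed counts per depth were 2.48-fold apart with a counting interval of 1.04 to 6.54. The same interval was 1.04 to 3.46 for Krt15, around a ratio of 1.87. For Krt5, whose groups overlapped, it was 1.47 to 4.26 around 2.47. Such intervals pool the libraries of a group, so they leave out the spread between replicates. Of the 8 keratins, 6 passed the filter (the 4 simple ones, Krt5 and Krt15), and Krt5 met the minimum only in the replicate 2 libraries.

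Most of the keratin family was silent or nearly so. The tables list 54 keratin genes, and the 8 described here took 14200 of 14679 keratin counts (96.7%). Of the other 46, 21 had 0 counts in every library, and 52 of 56 genes of keratin-associated hair proteins did. Only 6 of the 46 reached 10 counts in a library: Krt10, Krt80, Krt42, Krt90, Krt222 and Krt23. Krt80, a type II keratin next to Krt7 on chromosome 15, stood at 1.21 and 0.712 CPM untreated against 2.64 and 2.89 CPM with dTAG-13 (log2 fold change 1.51 ± 0.49, adjusted p = 1.00 by edgeR). Krt10, the type I keratin of suprabasal epidermis, had 4.52 and 2.49 CPM untreated and 1.88 and 2.97 with dTAG-13, and Krt42 had 1.43, 0.801, 1.28 and 2.12 CPM in the same order; both overlapped between groups. Krt90 had 4, 6, 10 and 10 counts, Krt222 had 2, 10, 5 and 7, and Krt23 had 2, 2, 3 and 12.

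Some keratins share sequence with other genes, and reads from shared stretches are uncertain. Of the distinct 50-base stretches in the annotated coding transcripts of Krt8, 29.7% also occur in another gene, and 26.9% occur in the processed pseudogene Krt8-ps. The value was 14.4% for Krt14 (mostly Krt16), 12.2% for Krt5 (mostly Krt6a), 3.99% for Krt17 and at most 0.72% for Krt18, Krt19, Krt7 and Krt15. Krt16 and Krt6a had 1 and 0 counts in all 4 libraries together. Tested genes beside the Krt8 and Krt18 pair had smaller fold changes. Eif4b, a translation initiation factor, lies within 100000 bases and had 956 and 910 CPM with dTAG-13 against 889 and 949 untreated (log2 fold change 0.02 ± 0.15), and Tns2 and Spryd3, the other tested neighbours besides keratins, had -0.02 and 0.24. These neighbours were listed after the keratin values were seen.

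Among mRNAs of the proteins that anchor keratin filaments at cell junctions, those of the desmosomal genes Dsg2, Jup and Dsc2 stood higher with dTAG-13. Of 17 anchors tested, 8 were higher at an unadjusted p under 0.05 and none was lower (2.29% and 1.23% of all tested genes). Without overlap, 9 stood above untreated (14.4% of all tested genes). In edgeR 0 passed over all genes, while DESeq2 called 3 higher (0.219% of all its genes). Their median log2 fold change was 0.91, against 0.004 over all tested genes, and was 0.31 without dTAG-13 replicate 2 and 0.60 without untreated replicate 1. The desmosomal cadherin Dsg2 was at 37.4 and 44.7 CPM untreated and at 89.4 and 119 CPM with dTAG-13 (log2 fold change 1.35 ± 0.19). Jup, plakoglobin of the desmosomal plaque, had 1.23 ± 0.19, and Dsc2, the other type of desmosomal cadherin, had 0.91 ± 0.14 (adjusted p = 0.76 by edgeR for all 3; 7.44e-05, 0.000469 and 0.00255 by DESeq2). Of the hemidesmosome genes, the integrin Itgb4 was at 4.59 and 6.32 CPM untreated against 6.65 and 10.5 CPM with dTAG-13, narrowly apart (log2 fold change 0.66 ± 0.37). The collagen Col17a1 was at 1.43 and 0.979 against 0.938 and 0.849 CPM (-0.43 ± 0.53), lower with dTAG-13 in both numbers. Itgb4 and Col17a1 were chosen after their values were seen. Other anchors differed little between the groups, which overlapped: Itga6 had -0.11 ± 0.21, Plec 0.10 ± 0.15, Dst 0.02 ± 0.15 and Pkp2 -0.01 ± 0.17. They too were chosen after their values were seen.

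Other intermediate filament genes did not all share a direction. In both replicate numbers 3 were higher and 5 lower (27.7% and 23.9% of all tested genes were). Without overlap, 0 stood above untreated and 4 below (14.4% and 11.9% of all tested genes). Of 12 tested, 0 were higher and 2 were lower at an unadjusted p under 0.05 (2.29% and 1.23% of all tested genes were). There were 0 adjusted calls in edgeR or DESeq2, and the median of -0.08 turned to 0.07 without untreated replicate 2. Synm (synemin) was at 31.4 and 47.2 CPM untreated and at 26.1 and 21.5 CPM with dTAG-13 (-0.72 ± 0.23, log2 fold change). Nes, the nestin of neural progenitors, had 38.5 and 68.3 against 34.5 and 27.9 CPM (-0.77 ± 0.30), and Lmnb2, a nuclear lamin, had -0.17 ± 0.15. Without untreated replicate 2 the log2 fold change of Synm was -0.40 and that of Nes -0.30. Vim, the vimentin of mesenchymal cells, was chosen after its values were seen; its levels were 202 and 132 CPM untreated against 210 and 102 CPM with dTAG-13, so it followed the replicate numbers and its groups overlapped.

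Among regulators of surface ectoderm and of stratification, 9 of 16 stood higher with dTAG-13 without overlap (14.4% of all tested genes did), and 7 overlapped between the groups. At an unadjusted p under 0.05, 7 were higher (2.29% of all tested genes were). In both replicate numbers 15 were higher and none was lower (27.7% and 23.9% of all tested genes were). None passed over all genes in edgeR, and DESeq2 called 2 higher (0.219% of all its genes were). Their median was 1.14 and was 0.63 without dTAG-13 replicate 2. Msx2, a homeobox gene of the surface ectoderm and a BMP target, was at 2.26 and 1.16 CPM untreated and at 9.04 and 11.3 CPM with dTAG-13 (log2 fold change 2.55 ± 0.43, adjusted p = 0.774 by edgeR and 0.00255 by DESeq2). Tfap2a, an AP-2 factor of surface ectoderm and neural crest, had 1.79 ± 0.45, and Ovol1, a zinc finger repressor in epidermis, had 1.89 ± 0.50. Trp63, which encodes p63 and is known to activate Krt5 and Krt14, was chosen after its values were seen; it had 7 and 3 counts untreated and 16 and 31 with dTAG-13 (log2 fold change 2.28 ± 0.64, adjusted p = 0.948 by edgeR). Trp63, which is among those 7, and Tfap2b reached the minimum of 10 counts only in dTAG-13 libraries, so they entered the test through the group where they were high. Of 16 suprabasal and cornified envelope genes in the tables, 7 had 0 counts in every library, Ivl and Flg among them, 9 had counts, and 5 were tested with 0 at an unadjusted p under 0.05 in either direction. Tgm1, a transglutaminase of the envelope, had 1.81 and 4.18 CPM untreated against 4.52 and 12.1 CPM with dTAG-13, Sfn had 5.42 and 13.8 against 16.7 and 41.1, and Perp had 21.1 and 28.6 against 26.4 and 32.7.

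**Figure D5:**
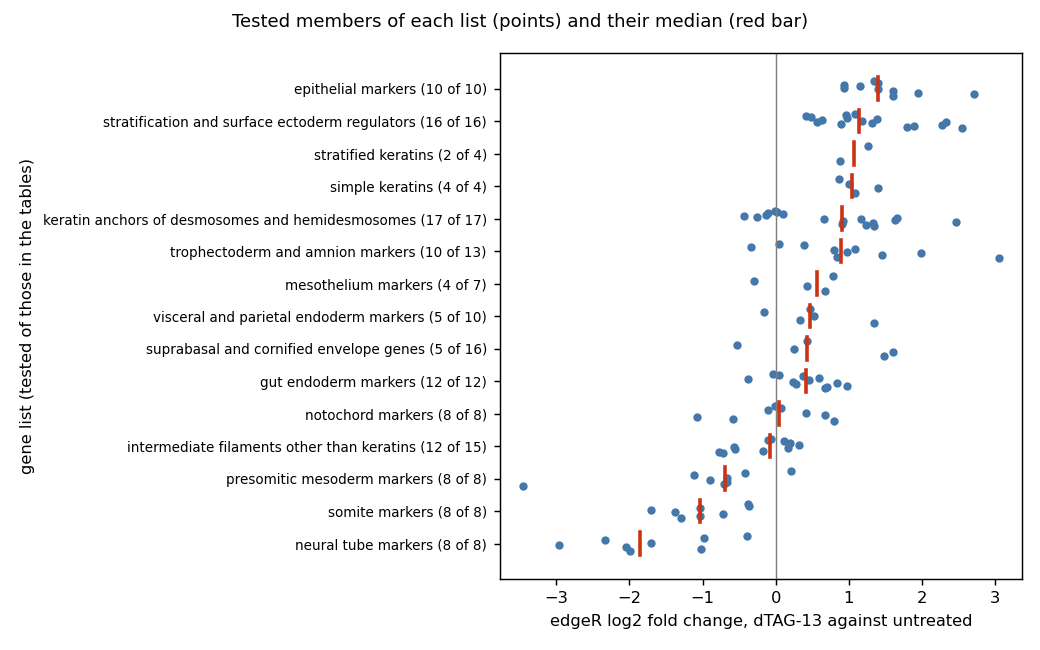
Log2 fold change (horizontal axis) of every tested member of each gene list (points) with the list median (red bar); the grey line is the median of all tested genes, 0.004. Epithelial markers have the highest median, 1.40, simple keratins have 1.05, and neural tube markers have the lowest, -1.85.

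Markers of epithelial cells were also higher with dTAG-13, and their part in the keratin difference was not tested. The 10 epithelial markers summed to 432 and 701 CPM untreated and to 798 and 1630 CPM with dTAG-13. In both numbers 10 of 10 were higher (27.7% of all tested genes were). Their median of 1.40 was 0.67 without dTAG-13 replicate 2. Cldn7, a tight junction claudin, had a log2 fold change of 1.61 ± 0.32 and Rab25, a small GTPase of epithelial cells, of 1.95 ± 0.49 (adjusted p = 0.774 and 0.948 by edgeR, 0.00355 and 0.0382 by DESeq2). DESeq2 called 4 of the 10 higher (0.219% of all its genes were). edgeR called 0, and there 6 were higher at an unadjusted p under 0.05 (2.29% of all tested genes were). In the untreated group the sum of these markers was higher in replicate 2, where that of the simple keratins was lower. The simple keratin sum per epithelial marker sum was 0.452 and 0.235 untreated and 0.425 and 0.292 with dTAG-13, means of 0.344 ± 0.153 and 0.358 ± 0.0935 (SD, n = 2 each), a ratio taken after the values were seen. This ratio differed less between the group means than between the replicate numbers. Few genes weigh heavily in the marker sum: Cdh1 alone had 174 of 432 CPM in untreated replicate 1 and 619 of 1630 CPM in dTAG-13 replicate 2. What the ratio reflects was not tested.

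Gut endoderm, in which Krt8, Krt18 and Krt19 are also known to be expressed, had marker sums of 416 and 284 CPM untreated against 472 and 376 CPM with dTAG-13. Of its 12 markers 2 were higher and 0 lower at an unadjusted p under 0.05 (2.29% and 1.23% of all tested genes were). In both replicate numbers 9 were higher and 0 lower (27.7% and 23.9% of all tested genes were). Without overlap, 4 stood above untreated and 0 below (14.4% and 11.9% of all tested genes). The median of 0.41 turned to -0.04 without dTAG-13 replicate 1. It was 0.05 without untreated replicate 2 and 0.69 without untreated replicate 1. Apela had a log2 fold change of 0.68 ± 0.19, Foxa2 of 0.70 ± 0.20 and Foxa3 of 0.97 ± 0.54. The sum was higher in replicate 1 of each group, as were those of the notochord, somite and visceral and parietal endoderm lists. Notochord markers had a median of 0.04 and sums of 209 to 276 CPM untreated and 238 to 289 CPM with dTAG-13, with Sox9 at 0.80 ± 0.22, Chrd at -0.58 ± 0.35 and Noto at -1.08 ± 0.67.

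Of 13 trophectoderm and amnion markers, 10 were tested, and Rhox6 and Rhox9 had 0 counts in every library. Of the 10 tested, 9 were higher with dTAG-13 in both numbers and 1 was lower (27.7% and 23.9% of all tested genes were). The 13 markers summed to 176 and 277 CPM untreated against 244 and 323 CPM with dTAG-13. Much of that sum was Cdx2 (83.4 and 181 against 81.6 and 128 CPM) and Tfap2c (32.2 and 76.8 against 55.9 and 157 CPM). Tfap2c and Gata3 are also among the surface ectoderm and stratification regulators, so the lists are not separate. The median of the tested markers, 0.90, was 0.08 without dTAG-13 replicate 1 and 0.46 without untreated replicate 2. Elf5, a trophoblast factor also known in glandular epithelium, had 1 and 4 counts untreated and 16 and 26 with dTAG-13 (3.05 ± 0.77) and was tested only because of its counts with dTAG-13. Gata2 had 0.84 ± 0.51, and 0.42 without dTAG-13 replicate 1, while Wnt6 had 1.46 ± 0.87, and 0.09 without dTAG-13 replicate 2. Among 10 visceral and parietal endoderm markers Afp had 0 counts in every library and 5 were tested (Apob 1.35 ± 0.51, Rhox5 0.33 ± 0.39, Cubn 0.53 ± 0.92). Their sum was 67.8 and 33.6 CPM untreated against 82.6 and 33.5 CPM with dTAG-13. Of 7 mesothelium markers Msln had 0 counts in every library, and the sums were 29.3 and 45.8 against 42.7 and 53.5 CPM (Bnc1 0.68 ± 0.36, Lrrn4 0.43 ± 0.33, Gpm6a -0.30 ± 0.35).

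Markers of the main somitic gastruloid tissues stood lower with dTAG-13, beside the higher keratins. Somite markers were lower in both numbers in 8 of 8 (23.9% of all tested genes were), presomitic markers in 7 of 8 and neural tube markers in 8 of 8. Their medians were -1.04, -0.69 and -1.85. edgeR gave 0 adjusted calls, and 4, 6 and 6 were lower at an unadjusted p under 0.05 (1.23% of all tested genes were). DESeq2 called 2 neural tube markers lower (0.114% of all its genes were) and none of the others. The somite factors Tcf15, Foxc2 and Pax3 had -1.29 ± 0.31, -1.04 ± 0.32 and -0.72 ± 0.24, the presomitic genes Ripply2, Hes7 and Dll1 had -3.45 ± 0.69, -0.70 ± 0.20 and -0.66 ± 0.21, and the neural genes Pou3f2, Irx3 and Nkx6-1 had -1.99 ± 0.41, -1.02 ± 0.21 and -2.05 ± 0.47. Ripply2, with 22 and 15 counts untreated and 1 and 2 with dTAG-13, and the neural gene Olig2, with 14 and 12 against 2 and 1, are among those counted and were tested only because of their untreated counts. The somite median was -0.62 when untreated replicate 1 was left out and -1.57 when dTAG-13 replicate 1 was, and the neural median was -1.13 when untreated replicate 2 was.

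Among 11384 other genes whose mean log2 CPM was 2 or more, the 5 whose pattern over the 4 libraries was nearest to that of Krt8 were Vsig10, Capn1, Slc40a1, Arhgap8 and Cldn7. Their root mean square distance from Krt8, in log2 CPM centred on each gene, was 0.0386 for Vsig10 and 0.131 for Cldn7. Vsig10 was at 8.06 and 7.47 CPM untreated and at 14.6 and 25.6 CPM with dTAG-13. Krt18 ranked 11th by this distance (0.162), Krt7 64th (0.315) and Krt19 665th (0.573). The pattern of Krt19 was less like that of Krt8 than those of the other simple keratins, over 4 libraries.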

How the data were processed

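The data were RNA-seq counts from 4 libraries of somitic gastruloids, in 2 groups of 2, untreated and dTAG-13, taken from the sample titles. Per the labels' protocols, libraries were made after ribosomal RNA depletion. The submitters' processing notes name fastp 0.20.1, STAR 2.7.6a, HTSeq 0.12.4, DESeq2 1.34.0 and the build GRCm38.p6, without roles; the annotation used and the strand setting are not stated there. Each deposited table holds unnormalized whole-number counts per gene symbol. Its 5 summary lines entered neither library sizes nor tests; reads counted outside genes were 24.12% to 35.65% and ambiguous reads 0.209% to 0.240% of all reads in each table. Counts of the replicates of a group differed by far more than sampling noise (chi-square per degree of freedom 36.3 and 30.9).

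edgeR 4.0.16 in R 4.3.3 was run on all 4 libraries: filterByExpr (minimum count 10, minimum total 15), TMM factors, glmQLFit with robust estimation, two-sided glmQLFTest, group as the only term, Benjamini-Hochberg adjustment over 13602 genes, threshold 0.05. SE is the absolute log2 fold change over the square root of F. CPM use TMM library sizes; log2 differences within a number add a prior count of 2. DESeq2 1.42.0 was an alternative, as were RLE and upper quartile factors, other filters, the replicate number as a block, library sizes without mitochondrial and the 50 highest genes, and leaving out each library. The edgeR step was run on simulated counts with a common dispersion for all genes and no difference between replicate numbers. These libraries differ from that setting, so the run cannot vouch for the calls here. Lengths are those of the longest GENCODE M21 transcript matched to RefSeq, and coordinates are GENCODE M21 (GRCm38); promoters are RefSeq's.

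The 8 keratins and the 13 other lists were chosen with earlier results of these data known. Genes were named by rule: the keratins, other keratins with at least 10 counts in a library, Zeb2, the 3 tested members of smallest p in each list and the 5 genes nearest to Krt8; 1 gene that the rule names is not reported here. Intervals are exact binomial or, for ratios, the exact conditional binomial at 95%, and the limit for a count of 0 is 3 counts. A planned comparison of protein sequences was not made.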

Additional observations from a re-analysis of the deposited data

How the results depend on the processing

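The count of genes called was 0 with RLE factors, with upper quartile factors, unfiltered, with a minimum of 50 counts, without mitochondrial and the 50 highest genes, and without any single library, and so was the count of keratins called. DESeq2 called 41 genes and 2 keratins. With a replicate block in the fit, edgeR found 636 genes and 4 keratins, Krt8, Krt18, Krt19 and Krt7 (adjusted p = 2.01e-16, 2.31e-10, 1.22e-06 and 0.000985), and neither Krt5 (0.217) nor Krt15 (0.536). With 2 numbers the design does not show that the numbers pair the libraries; the difference between replicates 1 and 2 correlated at 0.631 between the groups over the tested genes. DESeq2 was also run without each library in turn, an alternative chosen after seeing the data. Each such fit leaves a group with 1 library, and each called fewer genes over all than the fit with every library. Lost calls there are therefore not particular to the keratins.

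The log2 ratio of the simple sum was 0.89 to 1.40 when a library was left out and that of the stratified sum 0.40 to 1.51. The difference between the classes was -0.45 to 0.60, below 0 when untreated replicate 2 (-0.45) or dTAG-13 replicate 1 (-0.09) was left out; the cause was not tested. Single genes that reversed were Krt5 (-0.27 without dTAG-13 replicate 2, range to 1.98), Zeb2 (0.10 without untreated replicate 2, range from -0.65), Gpm6a (0.08 without untreated replicate 2, range from -0.61), Rhox5 (-0.17 without dTAG-13 replicate 1, range to 0.68) and Cubn (-0.11 without untreated replicate 2, -0.62 without dTAG-13 replicate 1, range to 1.70). The median of other intermediate filaments was 0.12 with no filter, 0.11 with DESeq2 and -0.23 to 0.07 without single libraries (0.07 without untreated replicate 2). Without dTAG-13 replicate 1 the median of gut endoderm was -0.04 (range to 0.69) and that of visceral and parietal endoderm -0.62 (range to 1.70). Depth limits the stratified keratins: 3 counts correspond to 0.226 to 0.267 CPM, near the level of Krt14 and Krt17 in untreated libraries.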
